A study of Homo sapiens with 9 samples.

Results

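ABC transporters are membrane proteins that use ATP to move drugs, lipids, metabolites and ions across membranes, and their genes carry symbols made of ABC, a family letter from A to G and a number. Counts were obtained for 46 genes with such symbols, and the 32 with at least 10 counts summed over all libraries are the members described here, out of 19102 genes that passed this minimum and 58920 listed. Of the 14 others, 11 were listed at 0 in every library. Just outside the minimum lay ABCA1, the cholesterol exporter, with 9 counts in all libraries together, ABCG4 with 8 and ABCB5 with 2. Just inside lay ABCA13 with 10, ABCA9 with 11, and ABCA6, ABCG1 and ABCG2 with 13 each. Averaged over libraries, 23 members reached 10 counts or more, and the 9 below that had between 10 and 67 counts over all libraries.

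The cells were LIM1215, an established human colorectal cancer line. LIM1215-parental (parental) cells were compared with the cetuximab-resistant lines LIM1215-R1 (R1) and LIM1215-R2 (R2), which had been derived independently by months of exposure to rising doses of the EGFR antibody cetuximab while the parental cells were grown in parallel without it. All cells were sequenced in untreated culture, in RPMI with serum, with 3 libraries per line. The study calls these technical replicates, so the p-values measure only the spread between these libraries, which may be technical. The resistant lines are mixed populations rather than single clones and hold subpopulations with HRAS mutations that differ between the lines. In such bulk RNA a change in the share of cells that express a gene and a change in the RNA per cell cannot be told apart.

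A working transporter combines membrane domains with a pair of ATP-binding domains, either in a single chain or by the pairing of smaller proteins. ABCB1, also known as P-glycoprotein or MDR1, several C members known as multidrug resistance proteins, and ABCG2, the breast cancer resistance protein, pump a wide range of small drugs out of cells. Most A and G members move lipids, B members sit largely in mitochondria, and D members carry fatty acyl groups into peroxisomes or cobalamin out of lysosomes. ABCE1 and the F members have ATP-binding domains but no membrane domain and act in translation. In intestinal epithelium the best known members are the efflux pumps, with ABCB1, ABCC2 and ABCG2 on the luminal side and ABCC3 on the side facing the blood.

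Total counts per library lay between 13737416 and 18725014, with correlations of log2 levels within a line between 0.9895 and 0.9917. Levels are given as CPM, the count of a gene relative to all counts of its library, after TMM scaling and per kb of transcript where genes are compared. Colon epithelial markers were present in every line, with 10 of 11 over 1 CPM, while KRT20 was listed at 0. Their summed level was 13190 to 13550 CPM in parental cells, 16540 to 16820 in R1 and 15000 to 15410 in R2. KRT8 and KRT18, at 5717 and 4131 CPM in parental cells, gave most of this sum. By the edgeR test described below, 4 of 10 tested markers rose and 5 fell in each resistant line. That is 90%, beside 36.6% in R1 and 31.9% in R2 of all genes averaging 10 counts or more. The leukocyte markers PTPRC and CD3E were listed at 0, CD68 gave 6.786 to 14.25 CPM, and the summed fibroblast and endothelial markers stayed at or below 2.183 and 0.7224 CPM. The part of these differences in the results was not tested.

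A minority of the members changed in the resistant lines, among them ABCA3, which rose in both, ABCB1, which rose in R1, and ABCD3, which fell in both. A member was said to have risen or fallen if edgeR's quasi-likelihood test gave a Benjamini-Hochberg adjusted p of at most 0.01 over all genes tested, and it was called a differentially expressed gene (DEG) if the log2 fold change was also at least 1.5 in size. In R1 against parental cells 5 of 32 members changed, 15.6%, where 27.3% of all genes tested did. Among the 4 that rose, beside 14% of all genes, were ABCA3, ABCB1 and ABCF2, and the 1 that fell, beside 13.4%, was ABCD3. In R2 against parental cells 7 of 32 changed, 21.9%, where 23.8% of all genes did. Of these 4 rose, among them ABCA3, ABCC3 and ABCE1, beside 12.3% of all genes, and 3, ABCC2, ABCC5 and ABCD3, fell, beside 11.6%. Without the second parental library the count for R1 went from 5 to 9, a setting for which no share of all genes is given.

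No member was a DEG in either line, where 5.14% of all genes were in R1 and 4.82% in R2. DESeq2 gave 0 member DEGs as well, and 0 members combined an unadjusted edgeR p under 0.05 with a change of that size. Among the members, 14 of 32 had an unadjusted p under 0.05 in R1 and 15 of 32 in R2, beside 43.1% and 39.8% of all genes. The median log2 fold change over the 32 members was 0.03 in R1 and 0.00 in R2, beside -0.01 and 0.00 over all genes. Restricted to genes averaging 10 counts or more, 21.7% and 30.4% of the 23 members changed, beside 36.6% and 31.9% of 13412 genes. Both comparisons share the parental libraries.

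**Figure D1:**
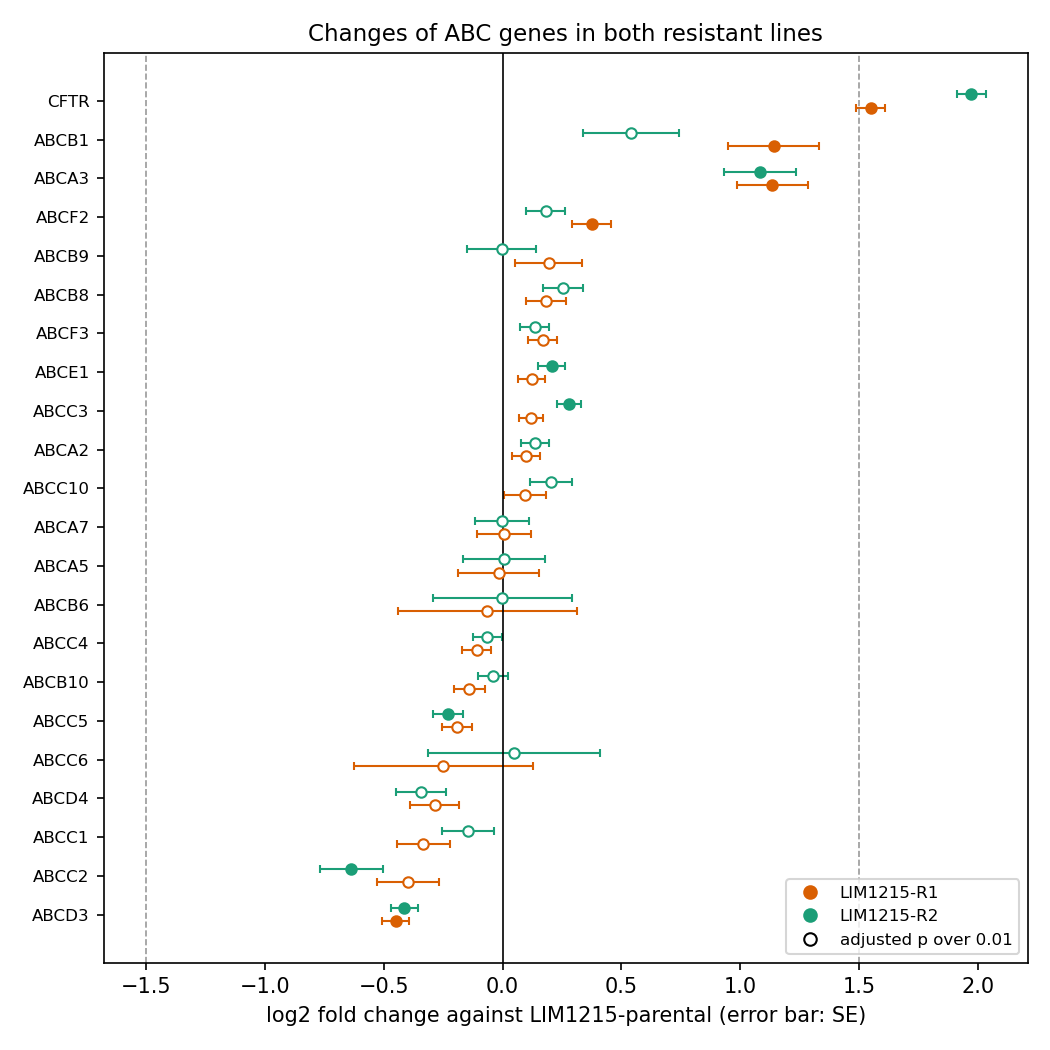
Log2 fold changes against parental cells (x axis, error bars SE) of 21 members averaging 10 counts or more per library and of CFTR, in R1 (orange) and R2 (green). Filled points have an adjusted p of at most 0.01 and dashed lines mark log2 fold changes of 1.5 in size. No member shown reaches the dashed lines, and CFTR lies beyond them in both lines.

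By level per length a member outside the efflux list, ABCE1, led in all lines. ABCE1, which splits ribosomes after translation ends, had 52.2 ± 3.56 CPM per kb in parental cells, 56.9 ± 4.82 in R1 and 60.3 ± 2.67 in R2 (SD, n = 3). Of its 100-base exon windows 12.8% have a copy elsewhere on the chromosomes of hg38, which leaves its level less certain. Next in parental cells were ABCD3, a peroxisomal transporter of branched-chain acyl-CoA, at 36.5 ± 2.55, ABCB10 of the inner mitochondrial membrane at 26.9 ± 2.25 and the efflux pump ABCC3 at 25.1 ± 1.34 CPM per kb. The levels of ABCB10 and ABCC3 in parental cells differed by less than the SD of ABCB10. ABCF3 at 20.4 ± 0.477 and ABCA2 at 19.4 ± 1.64 CPM per kb, which also overlapped, took the fifth and the sixth place in each line. ABCC3 moved from the fourth place in parental cells to the second in both resistant lines, at 27.3 ± 1.08 and 30.5 ± 0.756 CPM per kb, and in R1 it was within an SD of ABCD3 at 26.7 ± 1.17. At least 10 CPM per kb was reached by 8 members in parental cells, and 8 members stayed under 0.1 CPM per kb in all 3 lines.

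**Figure D2:**
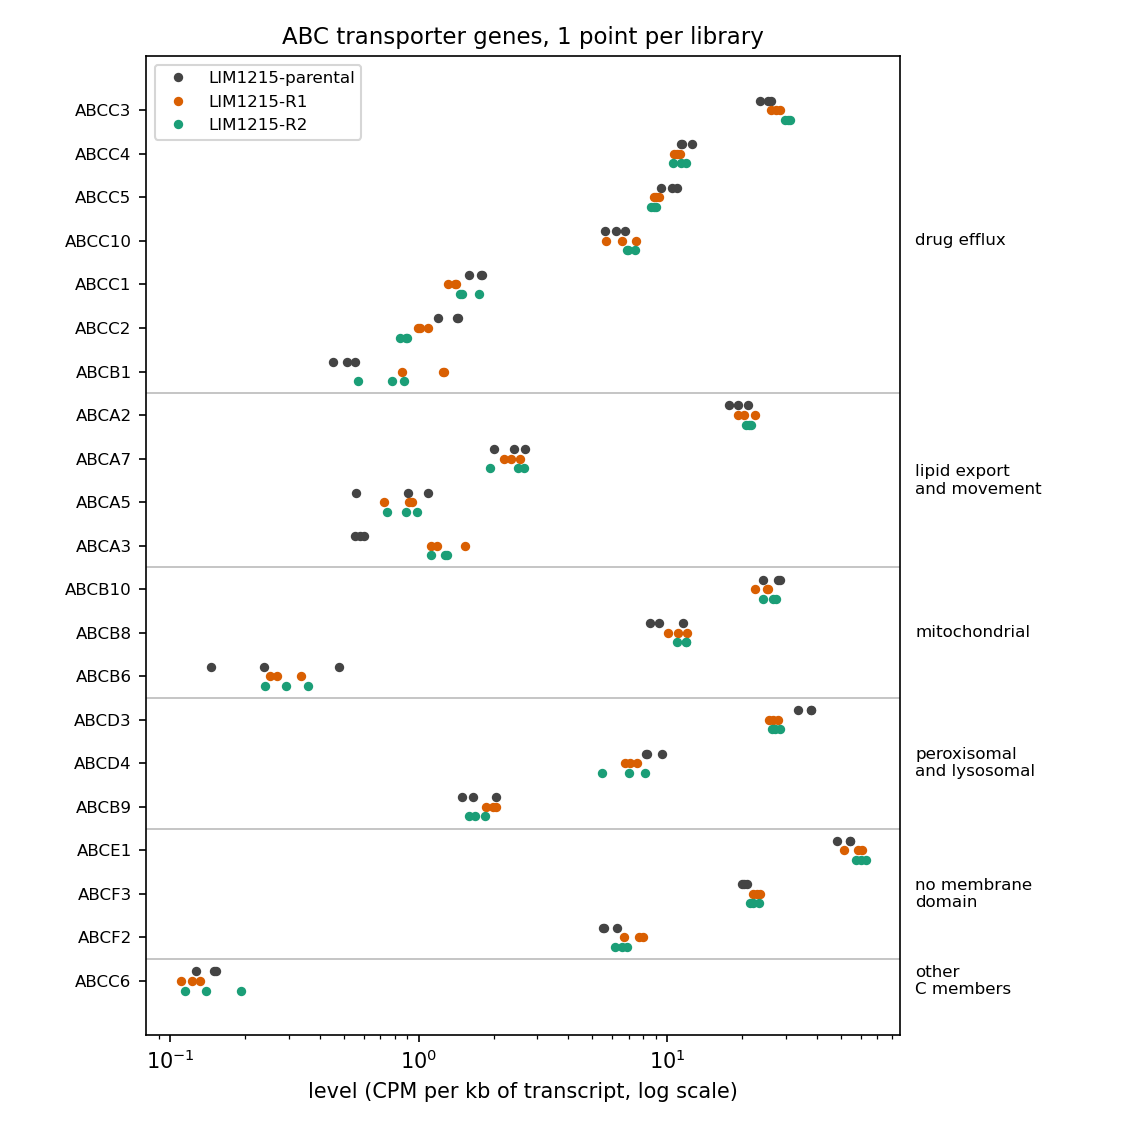
Levels of 21 members averaging 10 counts or more per library, in CPM per kb of transcript on a log scale, grouped by role, with 1 point per library. The highest member is ABCE1 (52.2 CPM per kb in parental cells) and the lowest ABCC6. All 6 resistant libraries lie above the 3 parental libraries for ABCA3, ABCB1 and ABCF3. They lie below them for ABCC2, ABCC5, ABCD3 and ABCD4.

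The drug efflux list held 10 genes, of which 9 were members and ABCB5 was not. Together the 9 gave 325 ± 5.94 CPM in parental cells, 326 ± 7.44 in R1 and 346 ± 2.63 in R2 (SD, n = 3). The range was 320.4 to 331.7 CPM in parental cells and 319.2 to 334 in R1, which overlap, while all R2 libraries, at 342.7 to 347.9, were higher. ABCC3 made up 44%, 47.6% and 50.2% of these sums. In R1 1 of 9 efflux members rose and 0 fell by the edgeR test, 11.1% beside 27.3% of all genes, and in R2 1 rose and 2 fell, 33.3% beside 23.8%. Of genes averaging 10 counts or more, as most efflux members did, 36.6% changed in R1 and 31.9% in R2.

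ABCB1 (P-glycoprotein) had the largest change of the efflux members that rose or fell. Its level was 2.36, 2.67 and 2.89 CPM in the parental libraries, 6.50, 4.46 and 6.57 in R1 and 4.52, 2.97 and 4.05 in R2. All R1 libraries were above all parental ones, and the R2 libraries were too, the lowest of them by little. In R1 the log2 fold change was 1.14 (SE 0.19, edgeR adjusted p = 2.24e-05), a fold of 2.21. In R2 it was 0.54 (SE 0.20, adjusted p = 0.0424), which did not pass the test. R2 against R1 gave -0.60 (SE 0.18, adjusted p = 0.0251), also not past it, and over the alternatives this p ran from 0.00408 to 0.182. Without the second R1 library, the lowest of its line, the difference was -0.76 with an adjusted p of 0.00421. Even where it rose ABCB1 stayed a low member, at 0.507 ± 0.0511 CPM per kb in parental cells and 1.12 ± 0.231 in R1, within an SD of ABCC2 (1.03 ± 0.0496) and far below ABCC3.

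ABCB1 has 2 start sites in the RefSeq promoter table for GRCh38.p14, and gene counts do not tell from which a transcript came. The 250 bases before each start are shown because ABCB1 was the efflux member that rose most, beside those of ABCA3 and CFTR, whose changes are given further on. Capitals mark CCAAT boxes (CCAAT or its reverse complement ATTGG) and GC boxes (GGGCGG or CCGCCC), which were searched on both strands and do not overlap each other here. The ABCB1 start farther upstream follows chr7:87713296-87713545 and the nearer one chr7:87600885-87601134, both on the minus strand. CFTR follows chr7:117479775-117480024 on the plus strand, and ABCA3 follows chr16:2340729-2340978 on the minus strand.
ABCB1, farther start: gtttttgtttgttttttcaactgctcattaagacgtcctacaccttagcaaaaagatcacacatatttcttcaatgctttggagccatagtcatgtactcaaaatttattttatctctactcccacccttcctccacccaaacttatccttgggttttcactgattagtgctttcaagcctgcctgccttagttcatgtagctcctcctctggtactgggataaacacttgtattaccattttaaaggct
ABCB1, nearer start: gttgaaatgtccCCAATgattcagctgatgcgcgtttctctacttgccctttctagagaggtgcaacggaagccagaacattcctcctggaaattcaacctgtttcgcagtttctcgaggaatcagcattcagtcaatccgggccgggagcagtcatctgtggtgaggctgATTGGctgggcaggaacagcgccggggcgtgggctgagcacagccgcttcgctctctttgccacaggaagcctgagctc
CFTR: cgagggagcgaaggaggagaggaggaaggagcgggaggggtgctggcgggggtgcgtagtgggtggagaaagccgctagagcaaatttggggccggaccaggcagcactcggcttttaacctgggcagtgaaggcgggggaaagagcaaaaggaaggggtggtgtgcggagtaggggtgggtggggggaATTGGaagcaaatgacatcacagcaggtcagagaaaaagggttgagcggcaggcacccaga
ABCA3: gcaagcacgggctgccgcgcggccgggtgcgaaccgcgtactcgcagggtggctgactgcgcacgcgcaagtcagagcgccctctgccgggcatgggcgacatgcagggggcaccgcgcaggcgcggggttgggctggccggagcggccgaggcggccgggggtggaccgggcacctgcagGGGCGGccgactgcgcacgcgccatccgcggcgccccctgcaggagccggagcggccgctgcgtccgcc
The window before the farther ABCB1 start had a GC content of 39.2% and neither motif, whereas the nearer one had 55.6% GC and 2 CCAAT boxes. The CFTR window held 1 CCAAT box at 61.2% GC, and the ABCA3 window 1 GC box at 79.2% GC. Among 35116 promoters of this length a CCAAT box was found in 32% and a GC box in 42.6%, and the median GC content was 58%. Promoter entries were found for 27 of the 32 members.

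ABCC3 (MRP3), which exports glucuronides and bile acids across the basolateral membrane, was the most abundant efflux member. Its level was 134.7, 145.1 and 149.5 CPM in parental cells, 149.2, 161.4 and 155.7 in R1 and 174, 169 and 177.6 in R2. R2 lay above all other libraries, while R1 overlapped parental cells. ABCC3 rose in R2 by a log2 fold change of 0.28 (SE 0.05, edgeR adjusted p = 7.26e-05), and R1 gave 0.12 (adjusted p = 0.0692). ABCC2 (MRP2), an apical exporter of conjugates, went the other way, with 8.26, 6.94 and 8.35 CPM in parental cells, 6.32, 5.77 and 5.88 in R1 and 4.88, 5.20 and 5.16 in R2. No library of either resistant line overlapped parental cells. The fall was by 0.64 on the log2 scale in R2 (SE 0.13, edgeR adjusted p = 0.000444), whereas -0.40 in R1 (SE 0.13, adjusted p = 0.0181) did not pass.

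ABCC5 (MRP5), an exporter of cyclic nucleotides and haem, fell slightly in R2. The parental libraries had 60.8, 54.7 and 63.6 CPM, R1 53.7, 52.3 and 51.4 and R2 51.4, 52.0 and 49.7. Both resistant lines lay below all parental libraries and overlapped each other. The log2 fold change was -0.23 in R2 (SE 0.06, edgeR adjusted p = 0.00557) and -0.19 in R1 (adjusted p = 0.0188), which passed in 4 of 17 alternatives. The R2 call was lost when any of the R2 libraries or the first or the third parental library was left out, with an adjusted p of 0.0161 to 0.0627.

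The other efflux members did not pass the test in either line. ABCC4 (MRP4), an exporter of cyclic nucleotides and prostanoids, had 69.0 ± 4.0, 64.0 ± 1.6 and 66.0 ± 4.1 CPM in parental cells, R1 and R2 (SD, n = 3), with log2 fold changes of -0.11 (95% interval -0.23 to 0.02) and -0.06 (-0.19 to 0.06). ABCC10 (MRP7), a pump for taxanes among others, had 31.2 ± 2.9, 33.2 ± 4.7 and 35.8 ± 1.5 CPM, and log2 fold changes of 0.10 (-0.09 to 0.28) and 0.20 (0.02 to 0.38, adjusted p = 0.0814). The R1 libraries of ABCC4 lay below and the R2 libraries of ABCC10 above all parental libraries, while the other line overlapped parental cells in each case. ABCC1 (MRP1), a glutathione conjugate exporter, had 11.2 ± 0.72, 8.94 ± 0.37 and 10.2 ± 1.0 CPM and log2 fold changes of -0.33 (adjusted p = 0.0202) and -0.14 (adjusted p = 0.361). The R1 libraries of ABCC1 lay below all parental ones, while R2 overlapped them. Among the alternatives, the R1 change of ABCC1 passed only with GC and length trends removed (edgeR adjusted p = 0.00448). All of its 100-base windows have a copy on an alternate sequence of hg38, on which its reads could match equally well if the authors' index held those sequences, so its level is uncertain. ABCC11, an exporter of conjugated steroids, and ABCG2 were near the floor of these libraries, with 17 and 13 counts over all 9. ABCG2 had 6 counts in parental cells, 6 in R1 and 1 in R2, and the ratio of parental cells to R2, 5.88 with an exact 95% counting interval of 0.714 to 271, does not distinguish them at this depth.

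**Figure D3:**
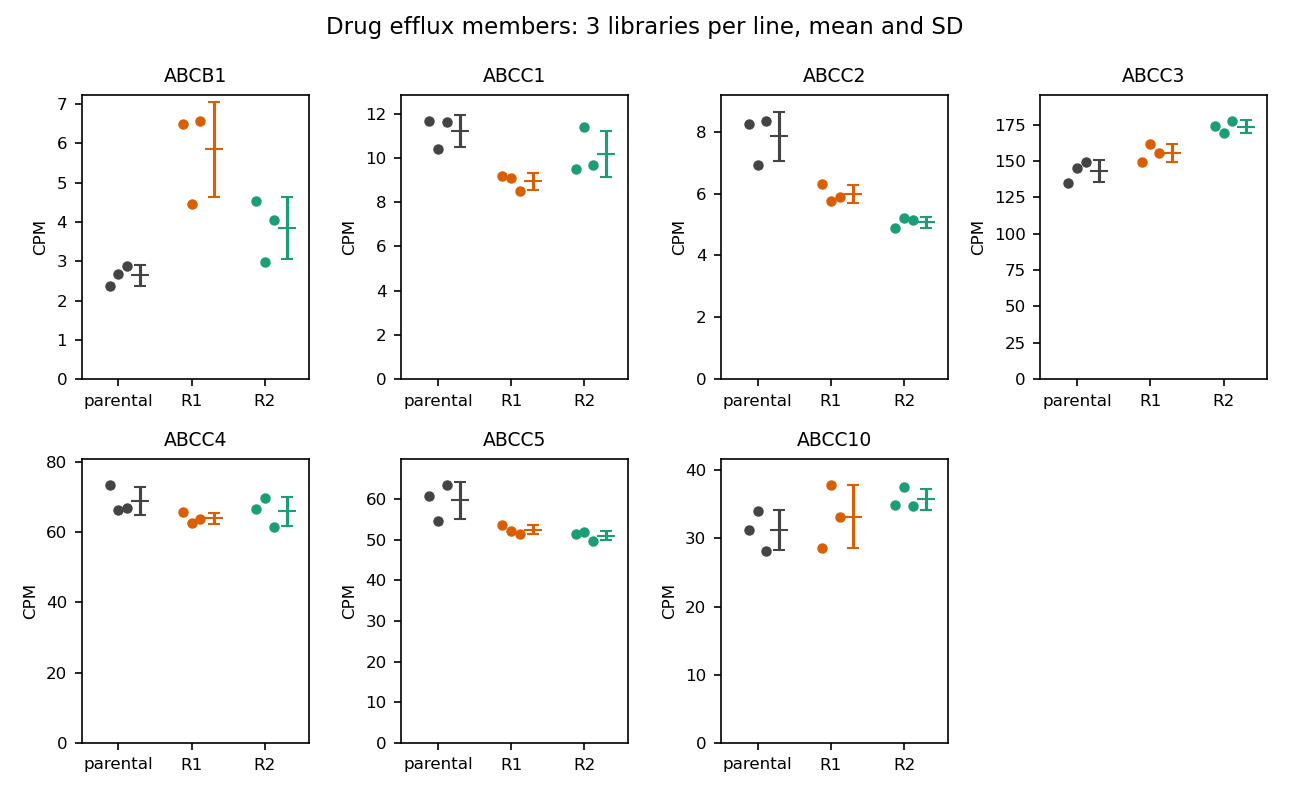
CPM of the 7 efflux members averaging 10 counts or more per library, 1 point per library, with mean and SD at the right of each group. ABCB1 is highest in R1 (6.50, 4.46 and 6.57 CPM), ABCC3 highest and ABCC2 lowest in R2, and the R2 libraries of ABCC4 overlap those of both other lines.

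The list of lipid transporters held 18 genes, 10 of them members, and 1 rose in each resistant line, 10% beside the 14% and 12.3% of all genes that rose. That gene was ABCA3, which loads phospholipids into lamellar bodies in lung and is found in lysosome-like vesicles elsewhere. It had 3.66, 3.83 and 3.99 CPM in parental cells, 7.79, 10.1 and 7.38 in R1 and 7.37, 8.61 and 8.43 in R2. All resistant libraries were above all parental ones, and R1 and R2 overlapped. The log2 fold change was 1.14 in R1 (SE 0.15, edgeR adjusted p = 6.34e-07) and 1.08 in R2 (SE 0.15, adjusted p = 1.48e-06), which are folds of 2.20 and 2.12. The most abundant lipid member, ABCA2, an endolysosomal transporter linked to cholesterol and sphingolipid handling, had 157 ± 13, 168 ± 14 and 172 ± 4.2 CPM and did not pass (adjusted p = 0.21 and 0.086). Its direction flipped in both lines once trends on GC content and length were removed. ABCA5 and ABCA7 had log2 fold changes between -0.02 and 0.01, and ABCA6, ABCA9, ABCA10, ABCA12, ABCA13 and ABCG1 had too few counts for a change to be seen, with an adjusted p of at least 0.25.

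Of the peroxisomal and lysosomal transporters, ABCD3, an abundant transporter of the peroxisomal membrane, fell in both lines. It had 136.8, 120.9 and 136.7 CPM in parental cells, 100.7, 92.3 and 96.1 in R1 and 103, 95.3 and 98.2 in R2, all of them below the parental libraries. The log2 fold changes were -0.45 (SE 0.06, edgeR adjusted p = 3.18e-07) and -0.41 (SE 0.06, adjusted p = 1.25e-06). ABCD4, a lysosomal cobalamin exporter, had log2 fold changes of -0.29 (adjusted p = 0.0315) and -0.34 (adjusted p = 0.0114), and ABCB9, a lysosomal peptide transporter, 0.19 and 0.00, and none of these passed. The R2 value of ABCD4 lay near the threshold and passed in 9 of 17 alternatives, over which its adjusted p ran from 0.000657 to 0.145.

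**Figure D4:**
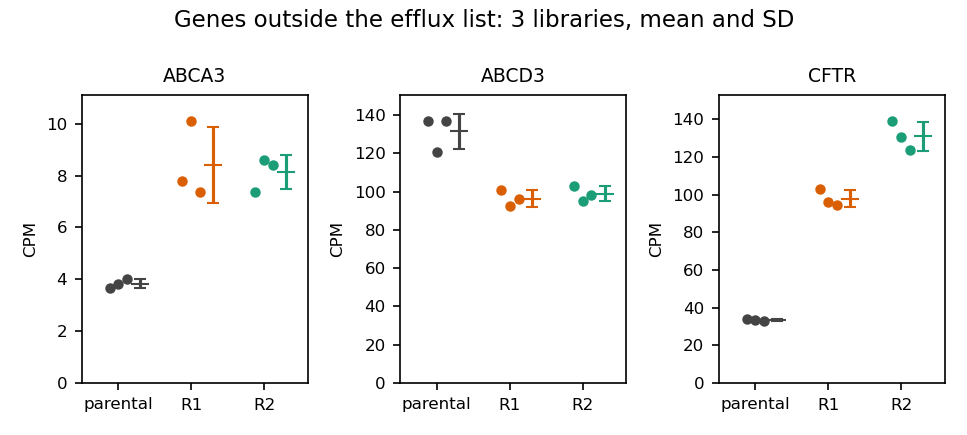
CPM of ABCA3, ABCD3 and CFTR, 1 point per library, with mean and SD at the right of each group. Resistant libraries lie above parental ones for ABCA3 and CFTR and below them for ABCD3, and CFTR is higher in R2 than in R1.

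The mitochondrial members ABCB6, ABCB8 and ABCB10, which serve haem metabolism and mitochondrial potassium transport among others, did not pass the edgeR test in either line. ABCB10, the most abundant, had 104 ± 8.7, 94.6 ± 6.1 and 101 ± 6.6 CPM in parental cells, R1 and R2. ABCB8 gave a log2 fold change of 0.25 in R2 (adjusted p = 0.0201), which passed in 6 of 17 alternatives. ABCB6 was low, at 0.853 ± 0.51 CPM in parental cells, and its exons overlap another gene on the same strand over 54.6% of their length.

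Members without a membrane domain numbered 3. ABCE1 had 211.3, 187 and 210.6 CPM in parental cells, 236, 200.1 and 227.4 in R1 and 244.8, 234.5 and 224 in R2, so that R1 overlapped parental cells and R2 did not. It rose in R2 by a log2 fold change of 0.21 (SE 0.06, edgeR adjusted p = 0.00584), a call lost without the second parental library (adjusted p = 0.0336), without the third R1 library (0.0102), without the first or second R2 library (0.0505 and 0.0262) and with library totals as the scale (0.0119). ABCF2, an F member of unsettled function, had 24.96, 28.3 and 25.3 CPM in parental cells, 30.4, 36.3 and 35.0 in R1 and 29.9, 27.9 and 31.2 in R2. R1 lay above all parental libraries, and R2 overlapped both. It rose in R1 by 0.38 (SE 0.08, edgeR adjusted p = 0.000532) and gave 0.18 in R2 (adjusted p = 0.0989). A read-through gene shares 37.1% of its exon length on the same strand. ABCF3 had 0.17 and 0.14 (adjusted p = 0.031 and 0.095). ABCF1 was listed at 0 in every library, and since each of its 100-base windows has a copy on an alternate sequence of hg38, the 0 cannot be read as absence of its RNA.

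Of the other C members ABCC6, a liver and kidney transporter tied to soft tissue mineralisation, had 0.735 ± 0.074, 0.622 ± 0.055 and 0.764 ± 0.21 CPM, and ABCC9, a potassium channel subunit, 14 counts in all. Neither passed (adjusted p of at least 0.67). Copies on alternate sequences of hg38 cover 97.5% of the windows of ABCC6. Copies elsewhere on the chromosomes cover 13.9% of the windows of ABCC6 and 13.2% of those of ABCC9.

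No member differed between R2 and R1 by the main test. By edgeR's test 0 of 32 passed, where 7.16% of all genes did, and 0 were DEGs, where 0.764% were. DESeq2 also gave 0 and 0, and 4 of 32 members had an unadjusted edgeR p under 0.05, beside 24.6% of all genes, of which 1 was higher and 3 lower in R2. Without the second R1 library 1 member, ABCB1, passed. In the 23 well-counted members the log2 difference between the lines ran from -0.60 for ABCB1 to 0.30 for ABCC6. For ABCA3 it was -0.05 (95% interval -0.33 to 0.22) and for ABCD3 0.04 (-0.08 to 0.16).

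Of the superfamily genes with other names, CFTR changed more than any member that passed the test. CFTR, the chloride and bicarbonate channel that would be ABCC7 by family, had 33.9, 33.2 and 33.2 CPM in parental cells, 103, 95.9 and 94.8 in R1 and 139, 131 and 124 in R2. The 3 lines did not overlap. Its log2 fold changes were 1.55 (SE 0.06, edgeR adjusted p = 2.06e-17) and 1.97 (SE 0.06, adjusted p = 9.65e-20), folds of 2.93 and 3.92, which made it a DEG in both lines, and R2 exceeded R1 by 0.42 (SE 0.06, adjusted p = 3.8e-06). At 5.51, 16.1 and 21.6 CPM per kb CFTR passed from below ABCC10 to above ABCC4 among the efflux members. TAP2, a subunit of the peptide transporter that feeds MHC class I, had 0.649, 1.01 and 0.630 CPM in parental cells, 1.78, 1.63 and 1.88 in R1 and 0.833, 1.55 and 1.31 in R2. It rose in R1 by 1.23 (SE 0.31, edgeR adjusted p = 0.0022), a call lost without the first or the third parental or the third R1 library (adjusted p of 0.0113 to 0.0171), and R2 gave 0.71 (adjusted p = 0.106). TAP1, its partner subunit, had 0.40 and 0.31 and did not pass (adjusted p = 0.0507 and 0.155). Copies on alternate sequences cover all windows of both TAP genes, so their levels are uncertain.

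Genes around CFTR, ABCB1, ABCA3 and ABCD3 were counted within 500 kb on each side, for centres chosen after their values were seen. Of all genes 14% rose and 13.4% fell in R1, and 12.3% rose and 11.6% fell in R2. Next to CFTR 3 genes were tested and 2 rose in both lines. These were CTTNBP2, with log2 fold changes of 0.61 and 0.74, and LOC105375469, with 3.78 and 3.65. Around ABCB1 11 were tested, of which 2 rose and 4 fell in R1 and 2 rose and 3 fell in R2. CROT, a peroxisomal carnitine acyltransferase gene within that window, rose by 1.01 and 1.58. ADAM22, in the same window, fell in both lines, with log2 fold changes of -1.54 and -1.02, as did DMTF1 and SRI. Around ABCA3 14 of 56 rose and 0 fell in R1, with 8 and 2 in R2, and around ABCD3 3 of 10 rose and 2 fell in R1, with 3 and 3 in R2.

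Of the regulators known to control ABC genes, 12 were tested and most fell. In R1 1 rose and 8 fell, 75% of the list beside 27.3% of all genes. In R2 1 rose and 7 fell, 66.7% beside 23.8%. Of genes averaging 10 counts or more, as most of these regulators did, 36.6% changed in R1 and 31.9% in R2. The median log2 fold changes of the list were -0.32 and -0.30 (all genes -0.01 and 0.00). NR1I2, the pregnane X receptor, a xenobiotic sensor that activates ABCB1 transcription, was the only DEG among them. It had 51 counts in parental cells, 9 in R1 and 1 in R2, and parental cells exceeded R1 by a ratio of 5.62 (exact 95% counting interval 2.74 to 13) and R2 by 50 (8.58 to 2010). The edgeR adjusted p was 0.000519 and 3.85e-06. ABCB1 and NR1I2 changed in opposite directions in R1, and a link between them was not tested. VDR, the vitamin D receptor, fell by 0.96 and 0.94 on the log2 scale, HNF4A, a hepatic and intestinal nuclear receptor, by 0.55 and 0.63, and AHR, the dioxin receptor, by 0.57 and 0.60 (edgeR adjusted p of at most 7.87e-09). PPARD, a fatty acid receptor, rose by 0.63 and 0.58 (edgeR adjusted p of 7.29e-08 and 3.1e-07). VDR, HNF4A, AHR and PPARD were named after their values were seen.

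Of 9 partner proteins of ABC transporters that were tested, 0 rose and 1 fell in R1, 11.1% beside 27.3% of all genes, and 1 rose and 1 fell in R2, 22.2% beside 23.8%. The gene that fell in both was LMBRD1, which brings ABCD4 to the lysosome, with 47.4 ± 0.81, 31.0 ± 2.6 and 32.1 ± 0.87 CPM and log2 fold changes of -0.61 and -0.56 (edgeR adjusted p = 6.54e-08 and 2.6e-07). PEX3 and PEX19, which insert peroxisomal membrane proteins such as ABCD3, did not pass, with log2 fold changes of -0.07 and 0.10 in R1 and -0.07 and 0.05 in R2. PDZK1, a scaffold that binds ABCC2 and CFTR at the apical membrane, had 3.65 ± 0.058, 4.48 ± 0.73 and 7.93 ± 0.82 CPM and rose in R2 by 1.12 (SE 0.15, edgeR adjusted p = 9.45e-07). Among 5 further targets of the sterol receptor LXR, which activates ABCA1 and ABCG1, 1 rose and 1 fell in R1, 40% beside 27.3% of all genes. In R2 0 rose and 3 fell, 60% beside 23.8%. Of genes averaging 10 counts or more, as these targets did, 36.6% changed in R1 and 31.9% in R2. These partner and target genes were likewise named after their values were seen.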

How the data were processed

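Stranded poly(A) libraries, 3 for each of the lines parental, R1 and R2, were sequenced from both ends. The authors aligned reads to hg38 with STAR and used HTSeq 0.9.1 with its reverse strand setting, and deposited raw counts for each gene and library. The annotation is not given in the sources used here. Libraries were grouped by the line in their titles. Members and gene lists were chosen with earlier results of these data known.

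The model was run in edgeR 4.0.16 under R 4.3.3. The 19102 genes with at least 10 summed counts were scaled by TMM and fitted with a quasi-likelihood model over all 9 libraries, and 3 contrasts were tested with Benjamini-Hochberg adjustment over all genes. The SE was derived from the test statistic. The script was tested on simulated data. DESeq2 1.42.0, other scalings and filters, a replicate block, left-out libraries, GC and length offsets and other thresholds were the alternatives. Named were all efflux members, DEGs, members past the test and changed by at least 0.5 on the log2 scale, the most abundant member per role, CFTR, TAP1 and TAP2. ABCD3, ABCF2 and ABCE1 call values, and all genes outside this rule, were added after values were seen. Copies were searched by aligning 100-base exon windows to hg38 with minimap2, a copy having at least 99 matching bases. Deviations from the line mean correlated across lines at -0.019 to 0.098 for same-number libraries and at -0.106 to 0.065 for others. Replicate pairs differed beyond counting noise. Intervals on counts cover counting error only. Promoters came from RefSeq, GRCh38.p14. Values of some members are not reported here.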

Additional observations from a re-analysis of the deposited data

Results flagged for a closer look

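Among the members, the superfamily genes with other names, the partners, the regulators and the LXR targets, 4 genes differed between the resistant lines by edgeR's test of the difference itself, with Benjamini-Hochberg adjustment, and none of them was a member. By list, 0 of 32 members differed, 1 of 3 superfamily genes with other names (33.3%) and 1 of 9 partners (11.1%). Of 12 regulators 1 differed (8.33%), and of 5 LXR targets 1 did (20%). Of all genes 7.16% differed, and of 10 epithelial markers 3 did (30%). CFTR was higher in R2 than in R1 by a log2 fold change of 0.42 (adjusted p = 3.8e-06), with all R2 libraries above all R1 libraries. PDZK1, the apical scaffold, was higher by 0.82 (adjusted p = 0.00025), and PPARA, a fatty acid receptor, by 0.27 (adjusted p = 0.000711). SCD, a fatty acid desaturase and LXR target, was lower in R2 by -0.61 (adjusted p = 3.59e-10), having risen in R1 and fallen in R2 against parental cells. Groups of 3 libraries were not tested for outlying samples.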

How the results depend on the processing

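All 5 calls in R1 held in each of the 17 alternatives, as did 5 of 7 in R2, where ABCC5 and ABCE1 were lost in some. Members past the test in R1 numbered 5, and 9 without the second parental library (5 to 9 over left-out libraries), 10 with GC and length trends removed and 10 at an adjusted p of 0.05. In R2 they numbered 7, 11 at 0.05 and 5 to 9 over left-out libraries. Between the resistant lines 0 became 1 with no filter, 2 with GC and length trends removed, 2 at 0.05 and 0 to 1 over left-out libraries, ABCB1 in each case and ABCC3 as the other. A replicate block gave 7, 9 and 2. The labels do not say whether libraries of 1 number share an origin. Across lines, deviations of same-number libraries correlated at -0.019 to 0.098, and those of other-number libraries at -0.106 to 0.065. At a log2 fold change of 1 the DEGs were 3 in R1 and 2 in R2. Shares of all genes under the alternatives are not given here, so these counts show only how the member calls moved. With GC and length trends removed the sign turned for ABCA2 (-0.12 in R1, adjusted p = 0.00665, and -0.086 in R2), ABCC10 in R1 (-0.042), ABCC6 in R2 (-0.032) and, between the resistant lines, ABCC4 (-0.0098), ABCD3 (-0.032) and ABCE1 (-0.026). Leaving out single libraries turned the sign of changes that had not passed the test. In R1 these log2 values then ranged from -0.0087 to 0.19 for ABCC10, -1.25 to 0.62 for ABCC11 and -0.87 to 0.97 for ABCG2. In R2 they ranged from -0.11 to 0.0078 for ABCB10, -1.28 to 0.32 for ABCC11 and -0.18 to 0.19 for ABCC6. Between the resistant lines they ranged from -0.015 to 0.10 for ABCA2, -0.14 to 0.10 for ABCA3, -0.86 to 0.38 for ABCC11 and -0.24 to 0.022 for TAP1. The cause was not tested. With 3 libraries per line, and 9 members with under 10 counts per library on average, small changes of the low members cannot be seen.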
